A study of Mus musculus with 8 samples.

Results

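Muscle stem cells, called satellite cells, were followed in bulk muscle RNA through 10 genes of their identity and quiescence. The genes were Pax7, Calcr, Chodl, Heyl, Hey1, Spry1, Fgfr4, Megf10, Vcam1 and Sdc4, chosen by name and matched to the deposited table by mouse Ensembl identifier. All 10 were present among 23008 mouse genes, and all 10 passed the minimum mean of 10 normalised reads that left 15960 genes for testing.

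RNA came from the gastrocnemius, a calf muscle, of C57BL/6J mice with no disease allele. Every mouse had received AAV9, a viral vector that reaches muscle from the blood, carrying the gene-activating construct that the labels call GNDM. In 4 libraries the construct carried guide m31, aimed at the laminin gene Lama1, and in 4 it carried a non-targeting control guide. Tissue was collected 11 weeks after tail vein injection at an age of 7 weeks (7 to 12 weeks in the design text). Neither the dose nor the promoter driving the construct is given in the sources used here, and no uninjected muscle was analysed here. Nothing in the labels ties each library to its own animal, so the spread that the p-values measure is that between these samples and may be partly technical.

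Satellite cells lie between the muscle fibre's membrane and the laminin-rich basement membrane that surrounds it. They are marked by the transcription factor Pax7 and stay out of the cell cycle until injury. Notch signalling, acting through the HES and HEY repressors, and calcitonin receptor signalling hold them in quiescence, whereas FGF signalling drives activation and is damped by Sprouty proteins. Apart from Pax7 and a few others, these genes are also used by vessel, immune or connective tissue cells, and in bulk muscle fewer cells of a type cannot be told apart from less RNA per cell.

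The libraries held 25157486 to 39210248 reads in mouse genes. Lama1, the gene targeted by m31, stood at 86.5 to 295 normalised reads with m31 and at 0 to 4.18 with the control guide. The lowest m31 value was in m31 replicate 4, where the construct GNDM stood at 6157 normalised reads. GNDM stood at 37989 in control replicate 3 and at 9802 to 24487 in the other 6 libraries. The part of these levels in the members' values was not tested. Fibre genes were abundant in both groups, with Myh4, the fastest myosin heavy chain, at 2151700 ± 234500 normalised reads in the m31 group and 2253200 ± 256260 in the control group (mean ± SD, 4 libraries each). In 2 libraries, m31 replicate 4 and control replicate 3, macrophage genes stood apart: the mean of 8 macrophage markers, in log2 units centred on the 8 libraries, was 1.16 and 0.60 there and -0.83 to 0.26 in the other 6. Macrophage genes were not the only ones. The mean of the fibro-adipogenic markers was 0.61 and 0.33 there and -0.36 to 0.09 in the other 6. That of the genes of activation, proliferation and fusion was 1.05 and 0.78 there and -0.61 to -0.13 in the other 6.

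None of the 10 genes differed between guides past the threshold. By limma, 0 of 10 had an adjusted p under 0.05, against 1 of 15960 genes overall (0.00627%), and 1 of 10, Heyl, had an unadjusted p under 0.05, against 6.79% of all genes. On the recovered whole reads, edgeR also called 0 of 10 (0.00618% of all genes) and DESeq2 0 of 10 (0.164%). No member's m31 libraries lay all above or all below its control libraries, which 3.85% of all genes did. The estimates were positive for 7 members and negative for 3, with a median log2 difference of 0.13, and 51.3% of all genes tested had positive estimates, with a median of 0.01. Without m31 replicate 4 the members' median was 0.01, and without control replicate 3 it was 0.23.

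**Figure D1:**
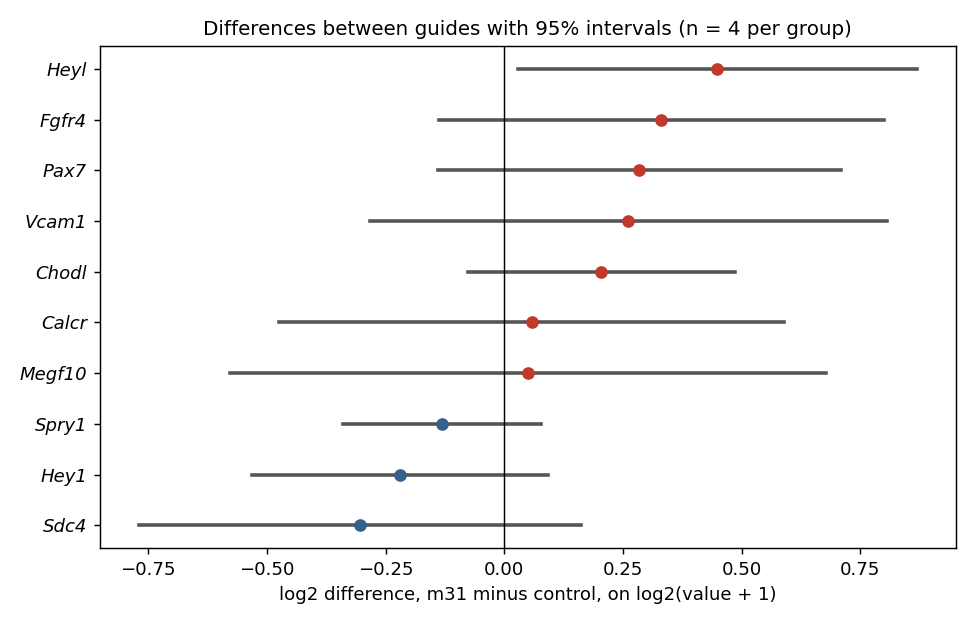
Log2 difference between guides (m31 minus control, x axis) for each of the 10 genes (y axis); points are limma estimates on log2(value + 1), red where positive and blue where negative, and lines are 95% confidence intervals with n = 4 libraries per group. The interval of Heyl runs from 0.03 to 0.87, and the other 9 intervals include 0.

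The 10 genes ranged from high to very low in muscle once corrected for length. Values were divided by the length of each gene's merged exons, and are means ± SD over all 8 libraries in normalised reads per kb. Sdc4, a heparan sulfate proteoglycan of the cell surface, was highest at 287 ± 82.6, followed by Spry1 at 216 ± 17.9. Heyl followed at 71.2 ± 18.2, Chodl at 49.99 ± 7.23, Hey1 at 43.98 ± 6.65 and Fgfr4 at 30.4 ± 6.73. Pax7 at 16.6 ± 3.66 and Vcam1 at 14.3 ± 4.83 came next. Calcr at 4.33 ± 0.560 and Megf10 at 3.92 ± 1.12 were lowest.

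Most neighbours in that order had overlapping ranges over the 8 libraries, the exceptions being Spry1 above Heyl and Vcam1 above Calcr. Within libraries the order held more often than those ranges show. Fgfr4 exceeded Pax7 in 8 of 8 libraries, and Heyl exceeded Chodl and Hey1 exceeded Fgfr4 in 7 of 8. Sdc4 exceeded Spry1, Chodl exceeded Hey1 and Pax7 exceeded Vcam1 in 6 of 8 libraries, and Calcr exceeded Megf10 in 5 of 8. Among the 15960 genes tested, the mean per-kb level of Sdc4 lay at percentile 80.2, that of Pax7 at 21.0, and those of Calcr and Megf10 at 4.96 and 4.26.

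**Figure D2:**
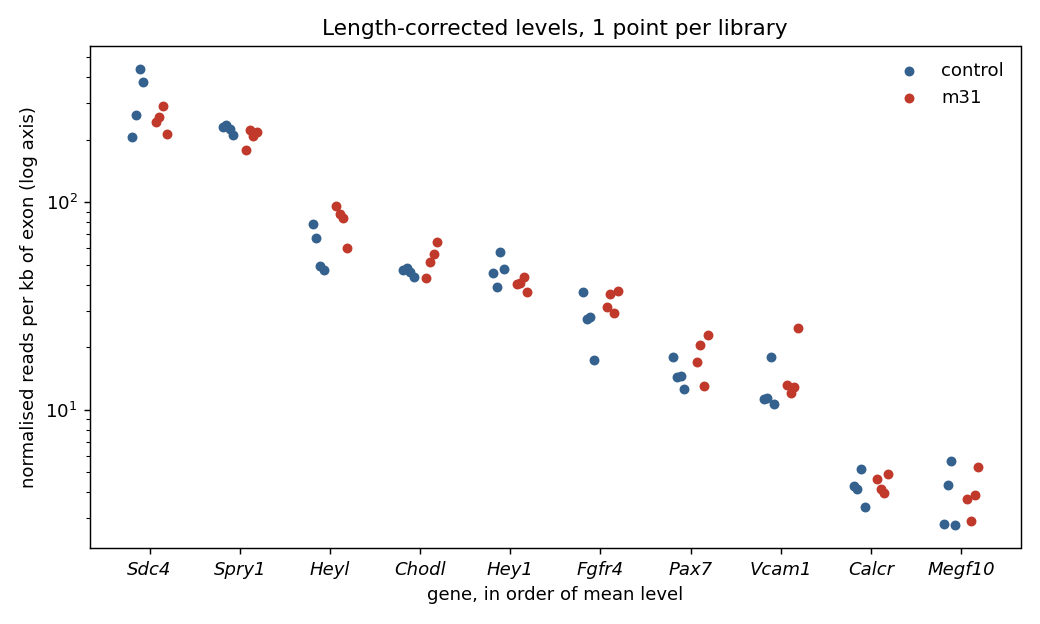
Normalised reads per kb of merged exon (y axis, logarithmic) for the 10 genes in order of mean level (x axis), with 1 point per library, control in blue and m31 in red. Sdc4 and Spry1 lie above 178 in every library, while Calcr and Megf10 reach at most 5.68.

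Pax7 encodes the paired-box transcription factor that defines satellite cells. In replicate order, the m31 libraries held 99.7, 120, 76.5 and 134 normalised reads of it. The control libraries held 105, 83.9, 85.4 and 73.3. Both groups covered much of the same range: m31 replicate 3 lay below 3 of the 4 control libraries, and m31 replicates 2 and 4 lay above all of them. The means were 107 ± 24.9 with m31 and 86.8 ± 13.04 with the control guide (SD over 4 libraries each). This is a log2 difference of 0.28 ± 0.19 (SE), with a 95% interval from -0.14 to 0.71 and limma's adjusted p = 0.827, and it was 0.17 without m31 replicate 4 and 0.44 without m31 replicate 3. The upper end of that interval corresponds to a 1.63-fold higher and the lower end to a 0.908-fold level. Pax7 rested on 55 to 167 reads per library, on chromosome 4 (GRCm38, 139737062 to 139833528, minus strand).

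Calcr and Chodl encode surface proteins that mark quiescent satellite cells. Calcr, the calcitonin receptor, restrains cell cycle entry, and Chodl encodes chondrolectin, a membrane lectin also known from fast motor neurons. The bases before their transcription start are shown because a Notch-related motif was found before Chodl, among 6 members matched in the RefSeq promoter table (GRCm38.p6), and not before Calcr. The motif searched was TGGGAA, the core bound by RBPJ, the DNA-binding partner of Notch, on either strand and without overlap with another motif. It stands in capitals at position -194 from the Chodl start. Of the 7 member starts matched 1 held it, and 21.6% of the 32851 starts in that table hold it within the same 250 bases. No start of Calcr, Pax7, Spry1, Sdc4 or Fgfr4 held it. Heyl, Hey1, Megf10 and Vcam1 had no start there and were not searched. A match is a description of letters, not of a bound site. Chodl lies on chromosome 16 (plus strand, chr16:78930698-78930947 shown) and Calcr on chromosome 6 (minus strand, chr6:3764714-3764963 shown).
Chodl: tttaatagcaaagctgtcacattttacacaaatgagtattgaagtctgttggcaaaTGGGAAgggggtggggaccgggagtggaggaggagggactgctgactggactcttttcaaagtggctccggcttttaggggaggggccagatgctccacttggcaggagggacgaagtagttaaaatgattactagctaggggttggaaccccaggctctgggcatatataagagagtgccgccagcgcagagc
Calcr: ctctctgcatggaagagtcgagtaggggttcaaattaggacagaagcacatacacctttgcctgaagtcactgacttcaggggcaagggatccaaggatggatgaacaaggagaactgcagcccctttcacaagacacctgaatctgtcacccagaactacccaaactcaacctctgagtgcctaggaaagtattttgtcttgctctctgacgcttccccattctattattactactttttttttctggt

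Chodl varied more with m31 than with the control guide. In replicate order, the m31 libraries held 236, 281, 310 and 353 normalised reads and the control libraries 259, 263, 253 and 239.9. In m31 replicates 2, 3 and 4 it was above every control library, and in m31 replicate 1 below all of them. On the log2 scale m31 differed by 0.20 ± 0.13 (SE; 95% interval -0.08 to 0.49; limma's adjusted p = 0.808), and 0.11 without m31 replicate 4. The coefficient of variation was 16.7% with m31 and 3.997% with the control guide, where counting alone gives 5.46% and 6.36%.

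Calcr was at the edge of what this depth resolves. It held 18.04, 16.2, 15.5 and 19.2 normalised reads in the m31 libraries and 16.7, 16.2, 20.2 and 13.3 in the control libraries, in replicate order, from 10 to 24 reads per library. The groups lay on top of each other, with means of 17.2 ± 1.72 and 16.6 ± 2.83. The spread between libraries, 9.98% and 17.0%, was within the 22.6% and 24.8% that counting alone gives. The log2 difference was 0.06, with a 95% interval from -0.47 to 0.59 (limma's adjusted p = 0.976) that still includes a 1.504-fold higher level, and it was -0.04 without control replicate 4 and 0.15 without control replicate 3.

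Heyl and Hey1 encode paralogous repressors induced by Notch, and their estimates pointed in opposite directions. In replicate order, Heyl had values of 490, 448, 430 and 308 normalised reads in the m31 libraries. The control libraries had 403, 342, 251 and 241. In m31 replicates 1 to 3 it was above all control libraries, and in m31 replicate 4 it was below control replicates 1 and 2. Its estimate was a log2 difference of 0.45 ± 0.19 (SE; 95% interval 0.03 to 0.87), the members' largest, with an unadjusted p = 0.0382 and limma's adjusted p = 0.720. Without m31 replicate 4 it was 0.59 (limma's adjusted p = 0.737) and the groups no longer overlapped, as for 6.92% of all genes in that comparison.

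For Hey1 the m31 values in replicate order were 132, 133, 143 and 120 normalised reads. The control values were 149, 127, 189 and 156. Control replicate 3 was highest, and control replicate 2 lay within the m31 range. The estimated log2 difference was -0.22 ± 0.14 (SE; 95% interval -0.53 to 0.09; limma's adjusted p = 0.821), -0.12 without control replicate 3 and -0.08 without both that library and m31 replicate 4. The spread with m31, 7.04%, was below the 8.21% that counting alone gives.

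Set against each other per kb, Heyl exceeded Hey1 in all 4 m31 libraries and in 2 of 4 control libraries. The ratio was 2.37, 2.15, 1.92 and 1.64 in m31 replicates 1 to 4 and 1.73, 1.72, 0.848 and 0.988 in control replicates 1 to 4. The groups overlapped, because m31 replicate 4 lay below control replicates 1 and 2. This ratio was chosen after the values were seen and was not tested.

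Heyl is also used by the mural cells of vessels. Of the 8 pericyte and smooth muscle markers 7 were tested and none was at 0. Estimates were positive for 5 and negative for 2, with a median log2 difference of 0.16, and their summed level lay between 21427 and 24616 normalised reads in the m31 group and between 21877 and 24274 in the control group. That sum is made up mostly of Rgs5 and Abcc9, whose log2 differences were -0.01 and -0.05. Pdgfrb, a receptor of pericytes and fibroblasts, did not overlap between groups, averaging 1773 ± 152 normalised reads over the m31 libraries against 1392 ± 187 over the control libraries (log2 difference 0.35, limma's adjusted p = 0.647), as 1.84% of all genes were higher in that way. Cspg4, a pericyte proteoglycan, overlapped, with a log2 difference of 0.39 (limma's adjusted p = 0.715). Pdgfrb and Cspg4 were the 2 of 7 markers tested with limma's unadjusted p under 0.05, against 6.79% of all genes. That count was 4 of 7 for tendon markers, 3 of 8 for Schwann cell and nerve markers and 0 to 1 for each other marker list. The other markers tested, Acta2, Myh11 and Kcnj8, had log2 differences of 0.09, 0.16 and 0.29. Among the genes of the other lists, the profile nearest to that of Heyl over the 8 libraries was that of Kcnj8, a pericyte potassium channel, with a mean absolute difference of 0.0967 log2 units. Every member has such a nearest gene by construction, among 137 candidates. Members not treated here as vessel genes also had pericyte markers nearest: Spry1 had Rgs5, at 0.0603, and Fgfr4 had Pdgfrb, at 0.158. The part of vessel cells in the Heyl values was not tested.

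**Figure D3:**
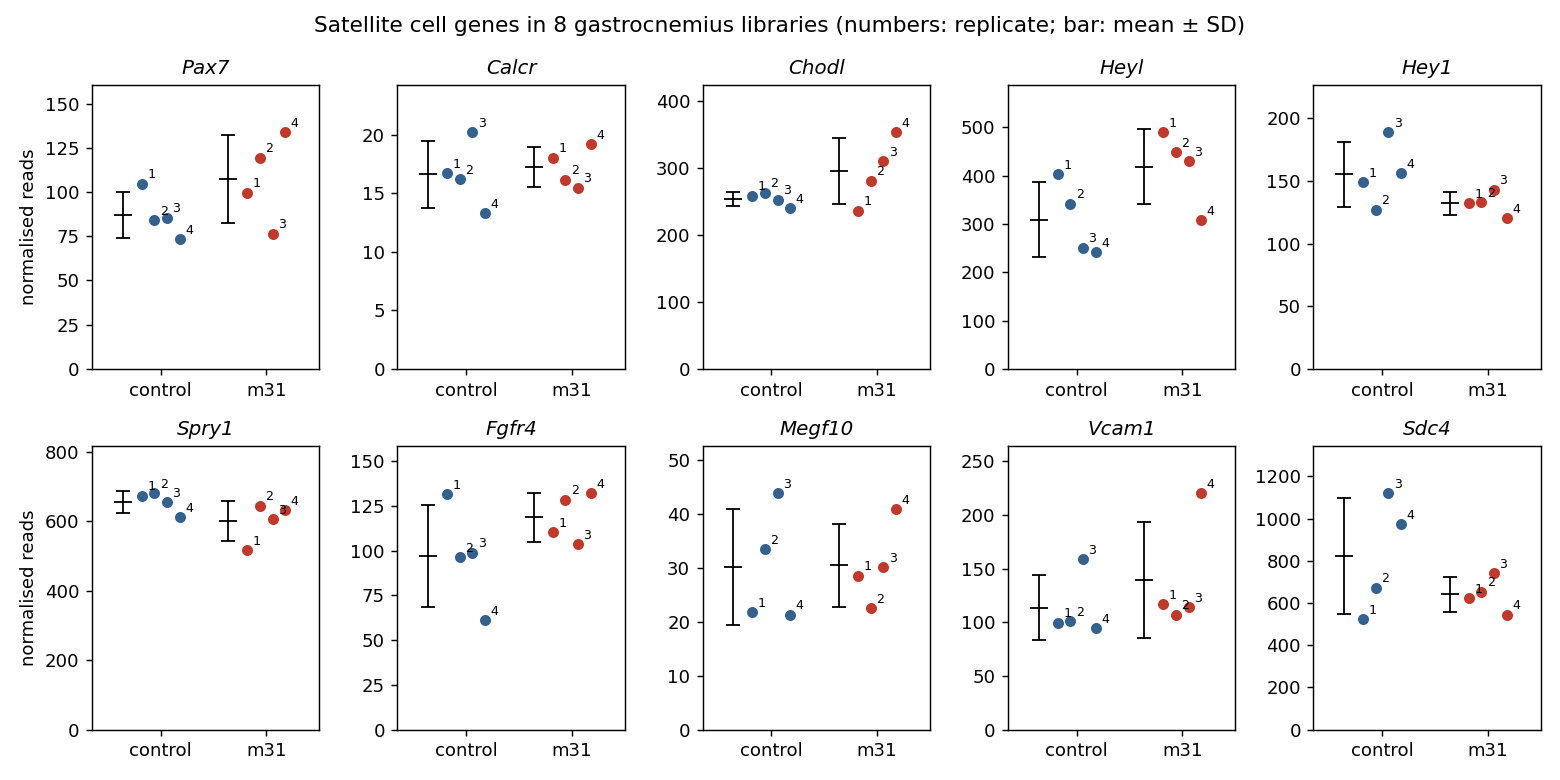
Normalised reads (y axis, from 0) of each gene in the 4 control (blue) and 4 m31 (red) libraries, with replicate numbers beside the points and the mean ± SD as a bar to the left. The groups overlap in every panel, and Vcam1 in m31 replicate 4 (220) and Sdc4 in control replicates 3 and 4 (1122 and 973) lie far from the rest of their group.

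Spry1 and Fgfr4 belong to FGF signalling. Spry1, an intracellular inhibitor of receptor tyrosine kinase signalling that is needed for the return to quiescence, was among the steadiest members. It held 518, 646, 606 and 633 normalised reads in the m31 libraries and 674, 682, 655 and 613 in the control libraries, in replicate order. In m31 replicate 1 it was lowest, and 3 of 4 control libraries were above every m31 library. Between guides it differed by -0.13 ± 0.09 in log2 units (SE; 95% interval -0.34 to 0.08; limma's adjusted p = 0.836), so its interval excludes a change to under 0.791-fold or over 1.06-fold. Without m31 replicate 1 the difference was -0.06. An unclassified transcript, Gm42922, overlaps its exons on the other strand with 7.18 normalised reads on average. The strand setting of the counting is not given, so reads of both cannot be told apart.

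Fgfr4, an FGF receptor of the myogenic lineage, was low in a single library. Its m31 values were 110, 128, 104 and 132 normalised reads in replicates 1 to 4. The control values were 131, 96.3, 98.9 and 61.3. Control replicate 4 was lowest and rested on 46 reads, while control replicate 1 was level with the highest m31 library. The estimated log2 difference was 0.33 ± 0.21 (SE; 95% interval -0.14 to 0.80; limma's adjusted p = 0.818), and 0.13 without control replicate 4.

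Megf10, Vcam1 and Sdc4 act at the cell surface. Megf10, a receptor with EGF-like repeats that supports satellite cell proliferation, held 28.5, 22.5, 30.04 and 40.9 normalised reads in the m31 libraries and 21.8, 33.4, 43.8 and 21.3 in the control libraries, in replicate order. The highest library of each group was one of the 2 libraries with high macrophage, fibro-adipogenic and activation genes. The gene of the other lists with the profile nearest to that of Megf10 was Ncam1, from the other satellite cell genes, at 0.106 log2 units. The log2 difference of Megf10 was 0.05 ± 0.28 (SE; 95% interval -0.58 to 0.68; limma's adjusted p = 0.980), -0.10 without m31 replicate 4 and 0.25 without control replicate 3.

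Vcam1, an adhesion receptor found on quiescent satellite cells, activated endothelium and macrophages, showed the widest spread with m31. Its m31 values were 117, 107, 114 and 220 normalised reads in replicates 1 to 4. The control values were 99.6, 101, 158 and 94.6. In each group a single library, m31 replicate 4 and control replicate 3, was high, and the other 3 lay within 106.9 to 116.8 and 94.6 to 101. Its log2 difference was 0.26 ± 0.25 (SE; 95% interval -0.28 to 0.81; limma's adjusted p = 0.874), 0.02 without m31 replicate 4 and 0.43 without control replicate 3. With both left out it was 0.19 (limma's adjusted p = 0.638) and the groups did not overlap. With those 6 libraries this held for 17.2% of all genes. An antisense transcript, Gm43109, overlaps the exons of Vcam1 on the other strand. It is absent from the deposited values, and any of its reads counted for Vcam1 cannot be told apart.

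Macrophage genes and Vcam1 were highest in the same library of each group. All 8 macrophage markers were tested, none was at 0 and all had positive estimates, with a median log2 difference of 0.61. Their summed level was 2436, 2980, 2324 and 5429 in m31 replicates 1 to 4 and 1796, 1643, 3747 and 1914 in control replicates 1 to 4. The libraries highest in Vcam1 were thus also the highest in these markers within each group. They were also the highest in the fibro-adipogenic and activation genes. In the remaining libraries the order differed. Vcam1 was lowest in m31 replicate 2 (107) and control replicate 4 (94.6), where the macrophage sum was the highest of the remaining libraries of each group. The gene of the other lists with the nearest profile was C1qa, a complement gene of macrophages, with a mean absolute difference of 0.120 log2 units. The part of macrophages in the Vcam1 values was not tested.

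Sdc4 encodes syndecan-4, a co-receptor for FGF and matrix. The m31 values were 624, 653, 742 and 545 normalised reads in replicate order. The control values were 523, 673, 1122 and 973. Control replicates 3 and 4 were above every m31 library, and control replicate 1 was the lowest of all 8. The log2 difference was -0.30 ± 0.21 (SE; 95% interval -0.77 to 0.16; limma's adjusted p = 0.828), -0.13 without control replicate 3, -0.20 without control replicate 4 and -0.50 without control replicate 1. Without both control replicate 3 and m31 replicate 4 it was -0.06, and with library weights it was 0.0016. The spread with the control guide, 33.2%, was far above the 3.62% that counting alone gives.

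The members did not vary as a block. Of the 10 genes, 4 were highest in m31 replicate 4 (Pax7, Chodl, Fgfr4 and Vcam1) and 4 in control replicate 3 (Calcr, Hey1, Megf10 and Sdc4). Control replicate 4, the library with the fewest reads, was lowest for 6 (Pax7, Calcr, Heyl, Fgfr4, Megf10 and Vcam1). Relative to each gene's own mean, Heyl was at -0.20 and Vcam1 at 0.85 log2 units in m31 replicate 4. In control replicate 4, Fgfr4 was at -0.77 and Sdc4 at 0.46.

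**Figure D4:**
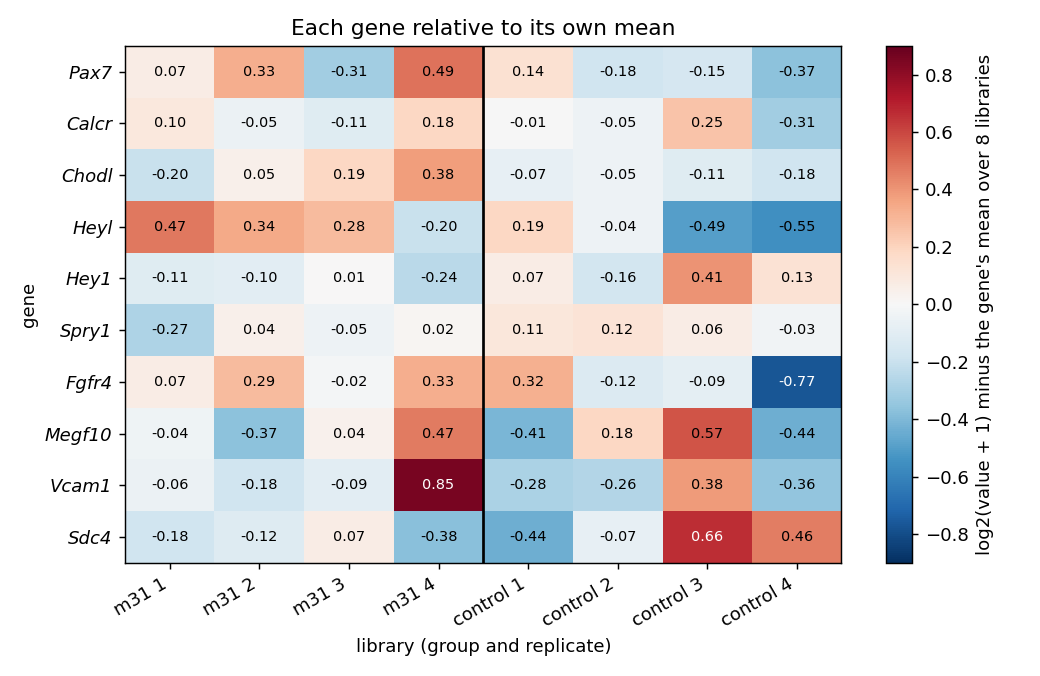
Log2(value + 1) of each gene (rows) in each library (columns) minus the gene's mean over the 8 libraries, in log2 units; red is above and blue below the mean, and the vertical line separates m31 from control. No row is red on 1 side and blue on the other throughout, and m31 replicate 4 and control replicate 3 hold the highest value of 4 genes each.

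Across all genes tested, the 3 with profiles nearest to that of Pax7 were Asap3, C1qtnf2 and Fat4, at mean absolute differences of 0.0526, 0.0585 and 0.0853 log2 units over the 8 libraries. C1qtnf2, for example, had 119 normalised reads in m31 replicate 4, 67.4 in m31 replicate 3 and 58.6 in control replicate 4. Among the related lists, the nearest to Pax7 was Igfbp5, a secreted binding protein of insulin-like growth factors, at 0.142.

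Of 17 other genes known from satellite cells, 16 were tested, 0 passed, and 8 estimates were positive and 8 negative, with a median log2 difference of 0.02. Pax3, the paralogue of Pax7, stayed below the minimum mean. The smallest unadjusted p values in this list belonged to Gas1, Cd34 and Gpc1. Gas1, a surface protein of quiescent cells that fibroblasts also carry, did not overlap between groups and was higher with m31, at 805 ± 220 normalised reads against 554 ± 57.2 (log2 difference 0.51, limma's adjusted p = 0.647), as were 1.84% of all genes. Without m31 replicate 4 its difference was 0.33. Cd34, shared with vessels and stromal cells, had a log2 difference of 0.31 (limma's adjusted p = 0.720) and the glypican gene Gpc1 0.17, which was 0.09 without m31 replicate 2 and 0.25 without m31 replicate 4.

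In the Notch pathway, 0 of 22 genes passed, with 12 positive and 10 negative estimates and a median log2 difference of 0.02. Notch3, a receptor of satellite cells and mural cells, averaged 1729 ± 161 normalised reads in the m31 group and 1373 ± 158 in the control group (log2 difference 0.34, limma's adjusted p = 0.647). Dll1, a Notch ligand, did not overlap between groups and was lower with m31, as were 2.02% of all genes. Its m31 values were 110, 126, 100.1 and 109.8 normalised reads, and its control values 130, 133, 151 and 161 (log2 difference -0.36, limma's adjusted p = 0.698). Mib1, the ubiquitin ligase that activates Notch ligands, had a log2 difference of -0.24, and -0.16 without control replicate 1.

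In FGF signalling, 0 of 16 genes passed, with 10 positive and 6 negative estimates and a median log2 difference of 0.10. The receptor gene Fgfr3 averaged 125 ± 35.1 normalised reads in the m31 group and 172 ± 15.03 in the control group (log2 difference -0.50, limma's adjusted p = 0.705). The feedback inhibitors Dusp6, a phosphatase acting on ERK, and Spred2 had log2 differences of 0.29 and 0.26, the latter 0.16 without m31 replicate 3.

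Among 18 partners of the calcitonin receptor, VCAM1, MEGF10 and the syndecans, 0 passed, with 12 positive and 6 negative estimates and a median of 0.07. Megf11, a paralogue of Megf10, had its whole m31 group below its control group, as 1 of these 18 genes and 2.02% of all genes did. In replicate order, the m31 libraries held 12.3, 17.1, 10.01 and 8.81 normalised reads and the control libraries 28.5, 22.9, 37.1 and 19.99. Its log2 difference was -1.11 ± 0.29 (SE; 95% interval -1.76 to -0.46; limma's adjusted p = 0.647). The syndecan gene Sdc1 had a log2 difference of 0.40, and the collagen V gene Col5a2 of 0.76, and without m31 replicate 4 these were 0.24 and 0.32. Collagen V is a ligand of the calcitonin receptor in satellite cells.

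Of the genes of activation, proliferation and fusion, 0 of 11 tested passed, with 6 positive and 5 negative estimates and a median of 0.04, and Mymx and Cdk1 stayed below the minimum mean. That median was -0.11 without m31 replicate 4 and ran from -0.17 to 0.215 with each library left out in turn. Myod1, the factor that commits satellite cells to myogenesis, averaged 689.98 ± 143 normalised reads in the m31 group and 562 ± 147 in the control group (log2 difference 0.31, limma's adjusted p = 0.813), which was 0.20 without m31 replicate 4 and 0.19 without control replicate 4. Igfbp5 had a log2 difference of 0.18, which was 0.04 without m31 replicate 4 and 0.29 without m31 replicate 3. Mymk, which encodes the fusion protein myomaker, had 0.83, and 1.77 without control replicate 3, 0.49 without control replicate 2 and 0.38 without control replicate 4. Without m31 replicate 4 Mymk fell below the minimum mean, so it was not tested and the list's median there leaves it out. It reached 84.9 normalised reads in m31 replicate 4 and 40.5 in control replicate 3, while the other 6 libraries held 1.33 to 5.70.

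**Figure D5:**
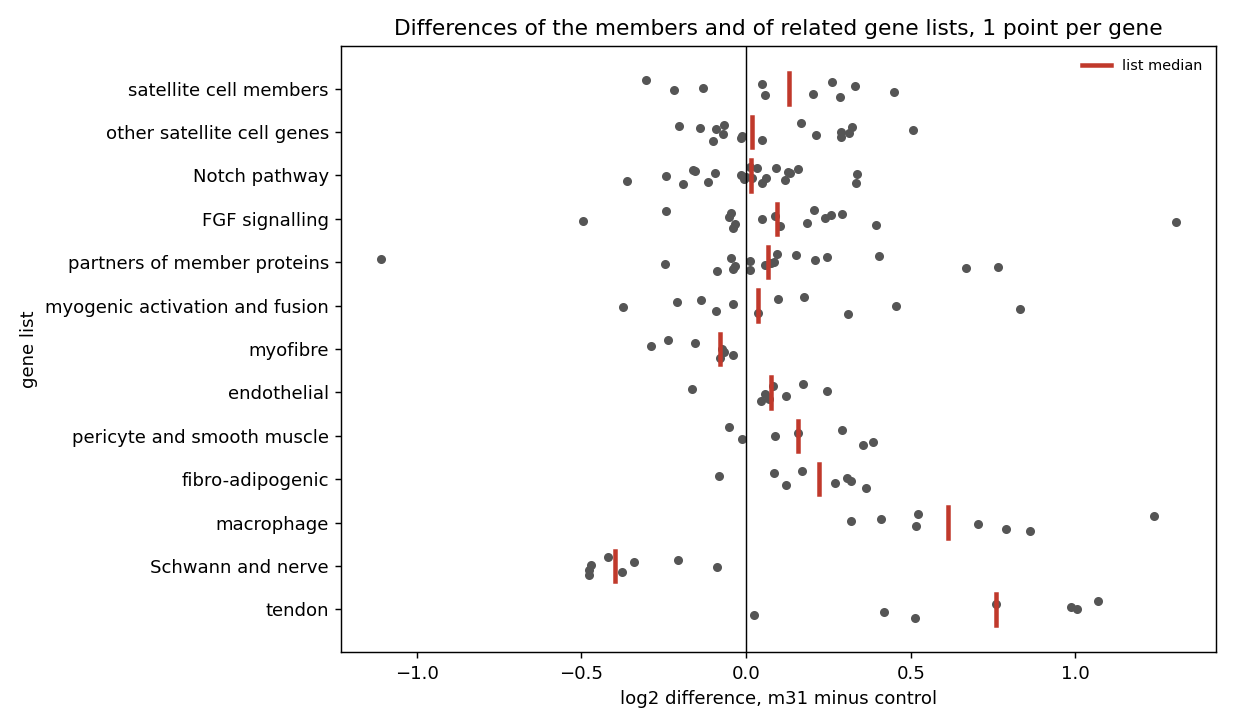
Log2 difference between guides (x axis) of every tested gene in the 10 members' list, in 5 related lists and in 7 marker lists of cell types in muscle (y axis), with 1 point per gene and a red line at each list's median. The members' median is at 0.13, and those of the macrophage, tendon and nerve markers are at 0.61, 0.76 and -0.40.

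Markers of the other cell types that a muscle sample holds are given beside these lists. Estimates were positive for 7 of 8 endothelial markers (median log2 difference 0.08), 7 of 8 fibro-adipogenic markers (0.22) and 7 of 7 tendon markers (0.76). They were negative for 8 of 8 Schwann cell and nerve markers (-0.40) and 7 of 7 fibre markers (-0.08), and of 6 lymphocyte markers 1 was tested. No marker in these lists passed over all genes or was at 0 in all libraries, and the part of these cells in the members' values was not tested.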

How the data were processed

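Total RNA of mouse gastrocnemius was sequenced with NEBNext Ultra libraries after RNeasy extraction, per the labels' protocols, and the titles put 4 libraries in each group. The deposited values are a normalised read signal: read counts per gene divided by 1 size factor per library. STAR and DESeq2, with no version, and the human build GRCh38.p12 appear in the submitters' processing notes, although the gene identifiers belong to mouse. How reads were counted, by strand or not, and any filter is not given in the sources used here. Of 11 value columns, 8 matched labelled libraries and 3 were not used. The 5 construct entries (0.0230 to 0.142% of reads) were left out of tests and totals. Symbols were found for 22979 genes. All values (100%) were whole reads within 0.01 of a read, so reads were recovered.

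The main test was limma 3.58.1 in R 4.3.3 on log2(value + 1), with an intensity trend, over the 15960 genes with a mean of at least 10. Adjusted p-values are Benjamini-Hochberg values over all genes tested, with a threshold of 0.05, and intervals are at 95%. Low genes' differences depend on the pseudocount. Exon lengths and positions came from GENCODE (GRCm38) and promoters from RefSeq. Alternatives were other minimum means, pseudocounts and scalings, library weights, the replicate number as a block, DESeq2 1.42.0 and each library left out. Added after seeing the data were edgeR 4.0.16 and leaving out both libraries that stood apart. The tests were tested on simulated data.

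The members and gene lists were chosen with earlier results of these data known. All members were named, and of each related list up to 3 genes with the smallest unadjusted p. Likeness is the mean absolute difference of centred log2 values. Replicates differed by more than sampling noise (chi-square per degree of freedom 12.97 to 52.2). Counting spread is that of reads alone.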

Additional observations from a re-analysis of the deposited data

Results flagged for a closer look

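In 7 of 50 groups of 4 libraries checked for the named genes, the highest or lowest library lay apart from the other 3, by a gap above Dixon's 95% critical value. Chance gives about 1 such group in 20 where groups are independent and normally distributed. The genes checked here share the same libraries, so no excess over chance can be read from this count. Vcam1 had 220.3 normalised reads in m31 replicate 4 (others 106.9 to 116.8) and 158.5 in control replicate 3 (others 94.6 to 101.1). Col5a2 stood at 4804 in m31 replicate 4 (others 1358 to 1440) and at 1935 in control replicate 3 (others 832 to 1011). Mymk stood at 84.93 in m31 replicate 4 (others 3.59 to 5.70) and at 40.46 in control replicate 3 (others 1.33 to 3.35). Of the 7, 6 thus lie in those 2 libraries. The remaining one is Dusp6, at 373.2 in m31 replicate 3 (others 416 to 424).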

How the results depend on the processing

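Under all 19 alternatives 0 members passed the threshold, and the smallest adjusted p of a member was 0.356, from limma. With a minimum mean of 50, Calcr and Megf10 were not tested. Of 188 recomputed member differences, 183 kept their sign. The exceptions were close to 0. Sdc4 was at 0.0016 with library weights, against -0.30 in the main fit. With each library left out, Calcr lay between -0.037 and 0.15 and Megf10 between -0.098 and 0.25. The number of genes past the threshold was 31 with DESeq2, 1 to 2 with each library left out, and 3 without m31 replicate 4 and control replicate 3. The number of members whose groups did not overlap was 0 to 1 with each library left out and 2 (Heyl and Vcam1) without those 2 libraries. Over all genes tested, 450 to 874 were higher and 480 to 1077 lower in that way with each library left out. Without those 2 libraries 17.2% did not overlap. The 1 member changed with the library left out, for example Chodl without m31 replicate 1 and Spry1 without control replicate 4. Genes whose groups did not overlap were 293 higher and 322 lower with m31, and 182 higher and 496 lower after recentring on library medians. Fewer libraries make such separation easier by construction. With the replicate block 1 gene and 0 members passed. Correlations between the deviations of same-numbered libraries were -0.18 to 0.05, so the numbers were not taken as a pairing. For Calcr and Megf10, 10 to 24 and 16 to 51 reads per library limit precision. The spread between libraries was within counting error for Calcr in both groups, Hey1 with m31 and Chodl with the control guide, and above it for the other members and groups.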

Other observations

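Myh3, Myog and Mki67 were highest in the same 2 libraries, 1 of each guide. These 3 genes were chosen with their values in view. Myh3, the embryonic myosin heavy chain, reached 344 normalised reads in m31 replicate 4 and 681 in control replicate 3, while the other 6 libraries held 70.1 to 193. Myog, the factor of myogenic differentiation, stood at 187.5 and 189 there and at 61.3 to 126 elsewhere. Mki67, a marker of dividing cells of any type, stood at 69.7 and 68.6 there and at 12.7 to 35.99 elsewhere. Other genes of fibre regeneration and division did not all follow this order. Myh8, the perinatal myosin heavy chain, stood at 3039 in m31 replicate 4 and at 2165 in control replicate 3, within the 1861 to 2439 of the other 6. Cdk1, a kinase of cell division, stood at 15.2 and 7.87 there, with 15.3 in control replicate 2. Pax7 did not follow this order: it was highest in m31 replicate 4 at 134 and stood at 85.4 in control replicate 3, below control replicate 1 at 105.

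Myf5, a myogenic factor of satellite cells, held 42.7, 51.2, 28.2 and 46.5 normalised reads in the m31 libraries and 27.6, 53.4, 60.7 and 42.6 in the control libraries, in replicate order, with overlapping groups and a log2 difference of -0.10. Cxcr4, a chemokine receptor of satellite cells and leukocytes, had a log2 difference of 0.29, with 114.6 in m31 replicate 4 as its highest value.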
